A study of Mus musculus with 2 samples.

Results

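Interferon-stimulated genes are the genes that cells switch on when interferon reaches them, and 39 of them were followed here in single bone-marrow progenitors. They were chosen by symbol, and all 39 were found among the 27998 genes of the count table. The cells were sorted as Lin- Sca-1+ c-kit+ CD34+ multipotent progenitors (the label also writes Flt3L+) from a C57BL/6 Spp1-/- mouse sample and a C57BL/6 wild-type sample. Spp1 encodes osteopontin, a secreted glycoprotein. Both samples were taken 20 h after intraperitoneal injection of thioglycollate, an irritant that draws leukocytes into the peritoneum, and no uninjected sample was part of the comparison. How many mice gave the cells is not stated.

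Each sample gave 1 library of 10X single-cell 3' RNA, in which every captured transcript is counted by its unique molecular identifier (UMI). The 2 libraries could be told apart by the barcode suffix, but no label ties a suffix to a genotype, so they are called library 2 and library 1 and no difference is given a direction by genotype. A single library per genotype leaves no replicate check, and no test was made. Intervals are 95% intervals that cover counting error only: exact Poisson for levels, exact binomial (Clopper-Pearson) for shares of cells and exact conditional Poisson for ratios.

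Type I interferons bind a receptor made of IFNAR1 and IFNAR2, and interferon gamma binds IFNGR1 and IFNGR2. The kinases JAK1, TYK2 and JAK2 then pass the signal to transcription factors in the nucleus. Type I interferon acts mainly through an interferon-stimulated response element (ISRE) in promoters, read by a complex that holds STAT2 and IRF9, and interferon gamma mainly through a gamma-activated site (GAS). Many of the genes are nearly silent until the signal arrives, such as the IFIT, OAS and GTPase families. Others, such as the IFITM proteins of cell membranes, are made all the time in stem and progenitor cells. By this textbook division 27 members were classed as inducible and 12 as constitutive. The 12 were Irf1, Irf9, Stat2, Eif2ak2, Bst2, Ifitm1, Ifitm2, Ifitm3, Samhd1, Isg20, Ifi35 and, of the GTPases, Irgm1. The classes were set with earlier results of these data known, so a contrast between them is a description.

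The promoters of these genes were searched for the letters of these elements. RefSeq promoter windows on GRCm38.p6, from 250 bases before to 50 bases after the start site, were given for 31 of the 39 members. An ISRE core was searched as GAAA followed, after 2 bases of any kind, by GAAA, on both strands. It was present in the windows of 18 members (58.1%), against 3.99% of the 27025 genes of the table. It was found for 12 of 19 inducible members (63.2%) and for 6 of 12 constitutive members (50%). A GAS core was searched as TTC followed after 3 bases of any kind by GAA, which reads the same on both strands. It was present for 12 members (38.7%), against 9.55% of all genes. By class, it was found for 5 of 19 inducible members (26.3%) and for 7 of 12 constitutive members (58.3%). A match describes letters and does not show that a factor binds. The following stretches of 50 bases, written 5′ to 3′ on the gene's strand with the ISRE core in capitals, come from genes the results turn on. They are 4 strongly inducible genes, 2 membrane genes made all the time, and 2 neighbouring GTPases.
Isg15, chr4:156200855-156200904, minus strand: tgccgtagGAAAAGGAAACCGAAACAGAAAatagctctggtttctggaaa
Ifit1, chr19:34640784-34640833, plus strand: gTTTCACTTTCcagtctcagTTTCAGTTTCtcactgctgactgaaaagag
Ifit3, chr19:34583387-34583436, plus strand: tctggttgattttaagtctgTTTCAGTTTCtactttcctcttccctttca
Rsad2, chr12:26456543-26456592, minus strand: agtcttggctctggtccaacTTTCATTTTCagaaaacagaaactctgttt
Bst2, chr8:71537567-71537616, minus strand: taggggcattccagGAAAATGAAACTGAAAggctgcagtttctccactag
Ifitm2, chr7:140955978-140956027, minus strand: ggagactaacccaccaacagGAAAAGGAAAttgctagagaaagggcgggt
Igtp, chr11:58199502-58199551, plus strand: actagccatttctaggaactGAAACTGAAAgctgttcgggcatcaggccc
Irgm2, chr11:58214893-58214942, plus strand: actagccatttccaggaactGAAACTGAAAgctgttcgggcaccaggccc
Where GAAA units overlap, the capitals run together, as in Isg15, whose window held 3 overlapping matches, and in Bst2, with 2. In Ifit1, Ifit3 and Rsad2 the core lies on the opposite strand and appears as TTTC, with 2 separate matches in the Ifit1 stretch. The windows of Igtp and Irgm2 were equal at 48 of 50 bases. The searched windows of Oasl1, Oasl2, Irf7 and Ifitm1 held no such core, which says only that these letters were not in this stretch.

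After removal of barcodes with fewer than 500 genes or 10% or more mitochondrial UMIs, library 2 held 4570 cells with a median of 3836 UMIs and library 1 held 3253 cells with a median of 2830 UMIs. The libraries shared 32 cell barcodes. The genes of the sort were present: Cd34 had a UMI in 80.4% of library 2 cells and 67.7% of library 1 cells, and Ly6a, which encodes Sca-1, in 59.0% and 54.4%. Kit and Flt3 were lower, with Kit in 13.6% of library 2 cells and 10.1% of library 1 cells. Of the 5 T cell genes, Cd3e and Cd3g had no UMI, Cd3d had 1 in library 2 and 0 in library 1, Cd28 had 73 UMIs in library 2 and 25 in library 1, and Lat had 936 and 482. Of the 4 NK genes, Ncr1 had no UMI and Gzma had 1 in library 2 and 0 in library 1. Klrb1c had a UMI in 0.372% of library 2 cells and 0.277% of library 1 cells, and Nkg7 in 60.4% and 50.5%. Of the B cell genes, Cd79a and Ms4a1 had at most 2 UMIs in a library, and Cd79b had a UMI in 24.8% of library 2 cells and 17.9% of library 1 cells. The neutrophil gene S100a8 had a UMI in 0.656% of library 2 cells and 0.891% of library 1 cells. Levels are given as counts per 1e6 UMIs of the library or cell group (CPM). To compare cells of unequal depth, 2000 UMIs were drawn from every cell, which could be done for 4016 cells of library 2 and 2444 of library 1 and left out 554 and 809 shallower cells. No group of cells here is known to lack these genes, so a share due to free RNA could not be read for them.

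Membrane proteins of the constitutive class dominated the set. Ifitm1, Ifitm2 and Ifitm3, small proteins that keep viruses from fusing with cell membranes, lie close together on chromosome 7 and together made up 4908 CPM in library 2 and 5122 CPM in library 1. The other 9 constitutive members summed to 660 CPM in library 2, against 635 CPM in library 1. Ifitm1 alone had 2383 CPM in library 2 and 2511 CPM in library 1. Ifitm3 had 1573 CPM in library 2 and 1560 CPM in library 1. Ifitm2 had 952 CPM in library 2, against 1051 CPM in library 1, and 27.5% of the 50-base words at its 3' end also occur in another gene, so reads may be split between them. Bst2, tetherin, which holds budding virus at the cell surface, had 341 CPM in library 2 and 332 CPM in library 1.

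The transcription factors of the pathway were present at modest levels. Irf7, which amplifies type I interferon production, had 42.3 CPM in library 2 and 34.9 CPM in library 1. Irf9, the DNA-binding partner of STAT2, had 40.8 CPM in library 2 and 36.3 CPM in library 1. Irf1, an early factor downstream of interferon gamma, had 26.4 CPM in library 2 and 22.7 CPM in library 1. Stat2 was the lowest of these, with 6.88 CPM in library 2 and 4.74 CPM in library 1. Among the sensors of foreign nucleic acid, Eif2ak2, the kinase PKR, led with 52.1 CPM in library 2 and 48.9 CPM in library 1. Dhx58, the RNA helicase LGP2, had 15.9 CPM in library 2 and 13.3 CPM in library 1. Ddx58 (RIG-I), Ifih1 (MDA5) and Zbp1, a sensor of left-handed nucleic acid, lay between 8.60 and 14.8 CPM.

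The strongly inducible families were rare transcripts. Isg15, a ubiquitin-like protein attached to other proteins, was the exception, with 84.5 CPM in library 2 and 76.4 CPM in library 1. Usp18, the protease that removes Isg15 and dampens receptor signalling, had 16.4 CPM in library 2 and 11.8 CPM in library 1. Ifit1, which binds viral RNA, had 9.65 CPM in library 2 and 9.88 CPM in library 1. Ifit2 and Ifit3 were lower still, between 2.27 and 2.56 CPM. Oasl2 had 28.9 CPM in library 2, against 25.0 CPM in library 1, and Oasl1, which limits Irf7 translation, 8.91 CPM in library 2 and 10.4 CPM in library 1. Rsad2, viperin, had 6.03 CPM in library 2 and 4.74 CPM in library 1. Mx1 had 18 UMIs in library 2 and 10 in library 1, was below the minimum of 50 UMIs and is not read further. C57BL/6 mice carry an Mx1 allele with an internal deletion.

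Of the GTPases that act at vacuoles of intracellular microbes, Ifi47 was the most abundant, with 81.5 CPM in library 2 and 72.8 CPM in library 1. Gbp7 had 34.5 CPM in library 2 and 34.4 CPM in library 1. Irgm1 and Igtp lay between 20.2 and 29.4 CPM, Gbp2 between 8.85 and 10.7 CPM, and Iigp1 and Irgm2 between 3.52 and 6.82 CPM. Irgm2 and Igtp are annotated over overlapping stretches of chromosome 11 on the same strand. Of the 50-base words at the 3' end of each, 0% occur in another gene. Reads from elsewhere in the overlap may still be split between them. Samhd1, which destroys nucleotides, had 37.1 CPM in library 2 and 37.6 CPM in library 1. Isg20, an exonuclease, had 24.4 CPM in library 2, against 25.6 CPM in library 1. Of the remaining effectors, Ifi35 had 105 CPM in library 2 and 97.6 CPM in library 1. Rtp4, a chaperone of receptors, had 105 CPM in library 2 and 96.1 CPM in library 1. Lgals3bp, a secreted glycoprotein, had 102 CPM in library 2 and 100.1 CPM in library 1. Ifi27l2a had 76.4 CPM in library 2 and 91.2 CPM in library 1. Xaf1, Trim30a and Parp14 lay between 17.0 and 33.9 CPM.

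**Figure D1:**
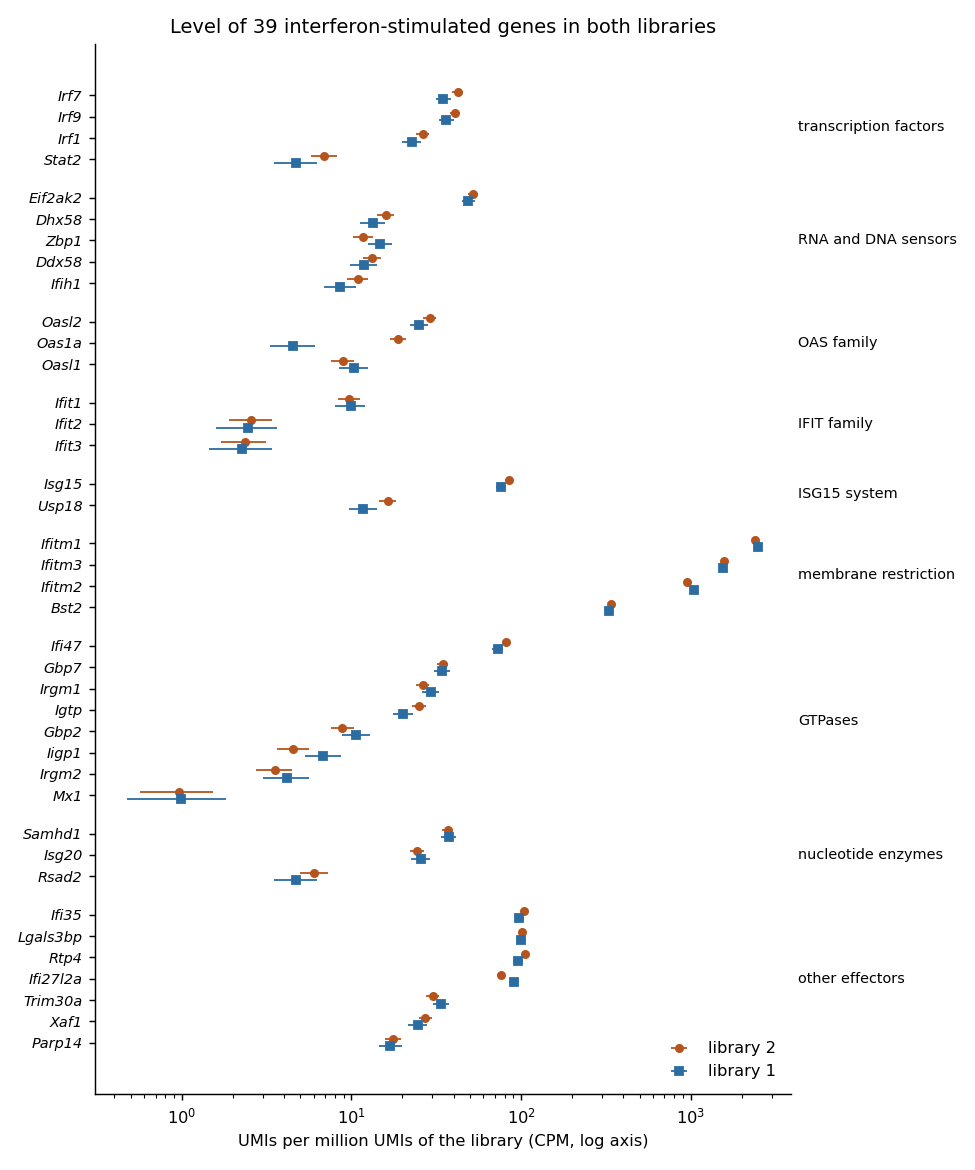
Level of each of the 39 members in library 2 (circles) and library 1 (squares), in CPM on a log axis, grouped by role; bars are exact Poisson intervals. The levels run from 0.960 CPM for Mx1 to above 2000 CPM for Ifitm1, and Oas1a is the member whose symbols lie farthest apart.

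Some members of each class were detected in many single cells. A member was called broad where it had a UMI in at least 10% of thinned cells of both libraries. By this rule 10 members were broad, namely 5 of 12 constitutive and 5 of 27 inducible ones. No inducible member was broad at a minimum share of 20%, or in cells thinned to 1000 UMIs, while 4 and 5 constitutive members were. The constitutive ones were Ifitm1, Ifitm2, Ifitm3, Bst2 and Ifi35. The inducible ones were Isg15, Ifi47, Rtp4, Ifi27l2a and Lgals3bp. Ifitm1 had a UMI in 92.7% of thinned cells of library 2 and 91.4% of library 1 (96.0% and 93.3% unthinned). Bst2 had one in 46.8% of thinned cells of library 2 and 45.2% of library 1 (68.0% and 58.0% unthinned). Isg15 had one in 14.1% of thinned cells of library 2 and 12.1% of library 1 (23.5% and 17.6% unthinned). Ifi27l2a was just inside the limit, with 10.8% of thinned cells in library 2 and 12.8% in library 1. Eif2ak2 was just outside it, with 10.1% in library 2 and 9.82% in library 1. The unthinned share with an Mx1 UMI was 0.372% in library 2 and 0.307% in library 1, below the share with S100a8 in each library, and is not read as expression.

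Between the libraries, the share of members past 1.5-fold was near that of all genes, so the count is not particular to the members. Of the 38 members with at least 50 UMIs, 2 differed by at least 1.5-fold, 1 in each direction, and 7.27% of all 10101 genes with at least 50 UMIs did so. The median log2 ratio of library 2 over library 1 was 0.05 for the members and 0.11 for all those genes, and 16 of the 38 lay above the median of all genes. The 27 inducible members summed to 790 CPM (777 to 802) in library 2 and 744 CPM (727 to 761) in library 1. The constitutive members summed to 5568 CPM in library 2 and 5756 CPM in library 1. Under TMM factors, which move the median of all genes to 0.02, the log2 ratio of the inducible sum was -0.0060 (-0.05 to 0.03), against 0.09 (0.05 to 0.13) with total UMIs, so the direction of that small difference depended on the scaling.

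Oas1a, which makes the oligoadenylate that switches on RNase L, was the member that stood apart. It had 354 UMIs and 18.9 CPM (17.0 to 21.0) in library 2, against 46 UMIs and 4.55 CPM (3.33 to 6.06) in library 1, a log2 ratio of 2.05 (1.61 to 2.53). The ratio was of like size in the largest of the lineage gates described further on. In granule-gene cells it had 80 UMIs in library 2 and 8 in library 1, a log2 ratio of 2.42 (1.37 to 3.68). In lymphoid-gene cells the log2 ratio was 2.43 (0.996 to 4.35), and in cells within no lineage gate it was 1.83 (1.196 to 2.53). Cells with G2/M transcripts had 85 Oas1a UMIs in library 2 and 0 in library 1. It had a UMI in 4.26% of thinned cells of library 2 and 0.818% of library 1. At its 3' end 21.1% of 50-base words also occur in another gene, and the treatment of such reads in the counting is not stated in the sources. The log2 ratio stayed between 1.96 and 2.23 under the alternatives in which the gene was kept. Iigp1 was the member past 1.5-fold in the other direction, with 85 UMIs and 4.53 CPM in library 2 and 69 UMIs and 6.82 CPM in library 1 (log2 -0.59, -1.06 to -0.11). In cells of 2000 to 6000 UMIs its log2 ratio was -0.19. Below the fold limit, Usp18 was at 0.48 (0.17 to 0.80), Stat2 at 0.54 (0.05 to 1.05) and Ifi27l2a at -0.26 (-0.38 to -0.14) on the log2 scale.

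The upstream genes of the pathway were read beside the members. None of the 11 interferon genes looked for, Ifnb1 and Ifng among them, had a UMI in either library, which at 3 counts allows up to 0.160 CPM in library 2 and 0.296 CPM in library 1. Receptors and kinases were present, with 9 of 10 genes measured and none past 1.5-fold between the libraries, against 7.27% of all genes. For this list and the other short ones of the pathway, counts of 0 or 1 are near what that share of all genes gives. Ifngr1 had 88.3 CPM in library 2, against 74.0 CPM in library 1, and Jak1 had 67.4 CPM in library 2 and 62.9 CPM in library 1. Ifnar2 had 61.2 CPM in library 2, against 45.2 CPM in library 1, and Ifnar1 19.7 CPM in library 2, against 16.7 CPM in library 1. Of the upstream sensing list, Irf8, a factor of the dendritic and monocytic lines, had 166 CPM in library 2, against 118 CPM in library 1, and Tmem173 (STING) had 113 CPM in library 2, against 107 CPM in library 1. Of 12 measured genes of that list 1, Tlr7, an RNA sensor of endosomes named here after its value was seen, was at least 1.5-fold lower in library 2 (log2 -0.65). Of the genes that restrain the signal, the phosphatase Ptpn6 had 146 CPM in library 2, against 130 CPM in library 1, and Ptpn2 had 54.7 CPM in library 2, against 45.6 CPM in library 1. Of 7 measured genes of that list 1, the phosphatase Ptpn11, also named after its value was seen, was at least 1.5-fold higher in library 2 (log2 0.67).

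In a wider list of 98 other interferon-stimulated genes, the share past 1.5-fold was also near that of all genes. Of 77 measured, 2 were at least 1.5-fold higher and 2 at least 1.5-fold lower in library 2, against 7.27% of all genes in both directions, with a median log2 ratio of 0.07. The immunoproteasome subunit Psmb8 had 1328 CPM in both libraries. Ly6e had 1158 CPM in library 2, against 1165 CPM in library 1, and the proteasome activator subunit Psme1 had 666 CPM in library 2, against 661 CPM in library 1. Of the 4 past 1.5-fold, Trim30d, named after its value was seen, was at log2 0.63. Ifi205 was at -3.24 on the log2 scale, with 10 UMIs in library 2 and 51 in library 1 and 82.5% of its 3' words shared. Cxcl10, a chemokine, was at 1.43, with 45 UMIs in library 2 and 9 in library 1. Tgtp1 was at -0.77, and 100% of its 3' words were shared.

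Cells with a strong interferon pattern were few. They were defined by 8 strongly inducible genes, Ifit1, Ifit3, Isg15, Rsad2, Usp18, Oasl1, Oasl2 and Irf7, as cells with at least 3 UMIs of these genes among 2000. There were 109 such cells in library 2, or 2.71% (2.23% to 3.26%), and 46 in library 1, or 1.88% (1.38% to 2.50%). The intervals of the shares overlap. These cells held 26.6% of all thinned UMIs of the 8 genes in library 2 and 21.4% in library 1. In most cells the 8 genes were silent at this depth, with no UMI in 72.4% of library 2 cells and 76.2% of library 1 cells. The distribution fell off without a gap, since 69 of the library 2 cells and 27 of the library 1 cells had exactly 3 such UMIs, and 224 cells of library 2 and 110 of library 1 had exactly 2. The interferon-high cells are thus a range of counts and not a cell type.

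**Figure D2:**
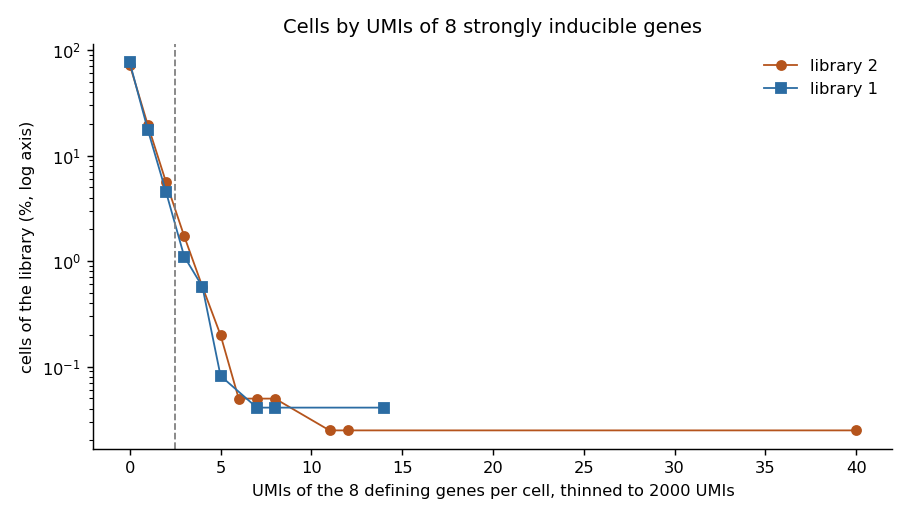
Share of the cells of library 2 (circles) and library 1 (squares), on a log axis, by the number of UMIs of the 8 defining genes after thinning to 2000 UMIs; the dashed line marks the lower limit of the interferon-high cells. Shares fall steeply to 6 UMIs, and a single library 2 cell lies at 40.

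The 8 genes were found together more often than their separate shares give. Over the 28 pairs, both genes were found in a cell 415 times in library 2, where the product of the separate shares gives 188. In library 1 it was 179 times, where the product gives 78.7. These are not counts of cells, since a cell with several of the genes adds 1 for each of its pairs. Thinned cells with at least 2 of the 8 genes made up 5.95% of library 2 and 4.30% of library 1. The fullest cells, which the defining UMIs chose, are given as a description. The first cell of library 2 had 40 defining UMIs among 2000 and 12 of the 39 members detected, the defining ones included, with 18 UMIs of Ifit1, 11 of Rsad2, 7 of Isg15 and 7 of Rtp4 among 2029 in all. The third had 29 Isg15 and 16 Ifit1 UMIs among 10064 in all, with 22 members detected. The fullest cell of library 1 had 14 defining UMIs. Per cell, the inducible members averaged 1.63 UMIs in library 2 and 1.47 in library 1 after thinning, with a variance 2.15 times the mean in library 2 and 1.69 times in library 1. The largest inducible sum in a single cell was 50 UMIs in library 2 and 21 in library 1. The constitutive members without Ifitm1-3 had a variance 1.12 times the mean in library 2 and 1.14 times in library 1, close to the 1 that counting alone gives. Ifitm1-3 had a variance 2.98 times the mean in library 2 and 3.20 times in library 1. Their mean was higher, at 9.83 UMIs per thinned cell in library 2 and 10.1 in library 1. The ratio of variance to mean can rise with the mean, so these ratios do not rank the groups by spread. Ifitm1-3 had a median of 9 UMIs per thinned cell in each library and were missing from 0.872% of cells in library 2 and 1.02% in library 1.

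The defining genes are given as a description. Isg15 had 638 CPM in the high cells and 70.1 CPM in the other cells of library 2, and 678 CPM and 59.3 CPM in library 1. Ifit1 had 186 CPM in the high cells and 4.52 CPM in the other cells of library 2, and 58.7 CPM and 5.95 CPM in library 1. Irf7 had 268 CPM in the high cells and 35.3 CPM in the other cells of library 2, and 215 CPM and 26.9 CPM in library 1. Ifit3, Usp18, Rsad2, Oasl1 and Oasl2 had log2 ratios of 5.15, 3.68, 4.88, 3.37 and 3.11 in library 2 and 5.10, 4.21, 2.79, 2.49 and 2.63 in library 1. Without the fullest cell, the ratio of Ifit1 in library 2 was 4.95 and that of Rsad2 4.40 on the log2 scale.

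The other 31 members did not choose the cells, and 30 of them were measured. Of the 30, 16 were at least 1.5-fold higher in the high cells of both libraries and none was at least 1.5-fold lower, against 4.74% of all genes at least 1.5-fold higher. Among the 16, the intervals of Irf1, Ifi47, Gbp2, Gbp7, Xaf1, Trim30a and Parp14 include no difference in at least 1 library. With high cells chosen among 3000 UMIs per cell, 9 of the other members were at least 1.5-fold higher. The median log2 ratio of the 30 was 1.01 in library 2 and 0.69 in library 1, where all genes had -0.02 and -0.10. Without Ifitm1-3 they summed to 2346 CPM in the high cells and 1203 CPM in the other cells of library 2 (log2 0.96, 0.87 to 1.06), and to 2218 CPM and 1127 CPM in library 1 (log2 0.98, 0.82 to 1.13). The sum was larger at each further defining UMI. In library 2 it was 1114, 1398, 1767 and 2143 CPM in cells with 0, 1, 2 and 3 defining UMIs, and in library 1 it was 1079, 1249, 1499 and 2078 CPM.

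Sensors and antiviral enzymes were among these. Iigp1 had 26.2 CPM in the high cells and 3.89 CPM in the other cells of library 2, and 32.6 CPM and 5.15 CPM in library 1, from 10 and 5 UMIs. Isg20 had 86.6 CPM in the high cells and 22.7 CPM in the other cells of library 2, and 111 CPM and 21.2 CPM in library 1. Rtp4 had 349 CPM in the high cells and 94.4 CPM in the other cells of library 2, and 254 CPM and 80.8 CPM in library 1. Zbp1 was at log2 1.88 (1.02 to 2.64) in library 2 and 2.08 (0.83 to 3.11) in library 1, and Ifih1 at 1.76 (0.82 to 2.57) and 2.37 (0.88 to 3.57). Ifi27l2a was at 1.15 in library 2 and 1.24 in library 1, and Eif2ak2 at 0.96 and 0.97. The membrane proteins differed less. Ifitm3 had 2537 CPM in the high cells and 1535 CPM in the other cells of library 2 (log2 0.73, 0.63 to 0.82), and 2218 CPM and 1506 CPM in library 1 (log2 0.56, 0.40 to 0.71). Bst2 was at 0.49 (0.27 to 0.70) in library 2 and 0.72 (0.39 to 1.04) in library 1. Ifitm2 was at 0.05 (-0.10 to 0.20) in library 2 and -0.05 (-0.29 to 0.17) in library 1, so its intervals include no difference in both. Oas1a was at -0.06 (-1.39 to 0.999) in library 2 and had 1 UMI in the high cells of library 1. Ifit2 had 2 UMIs in the high cells of library 2 and 0 in those of library 1, and Irgm2 had 1 and 0.

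**Figure D3:**
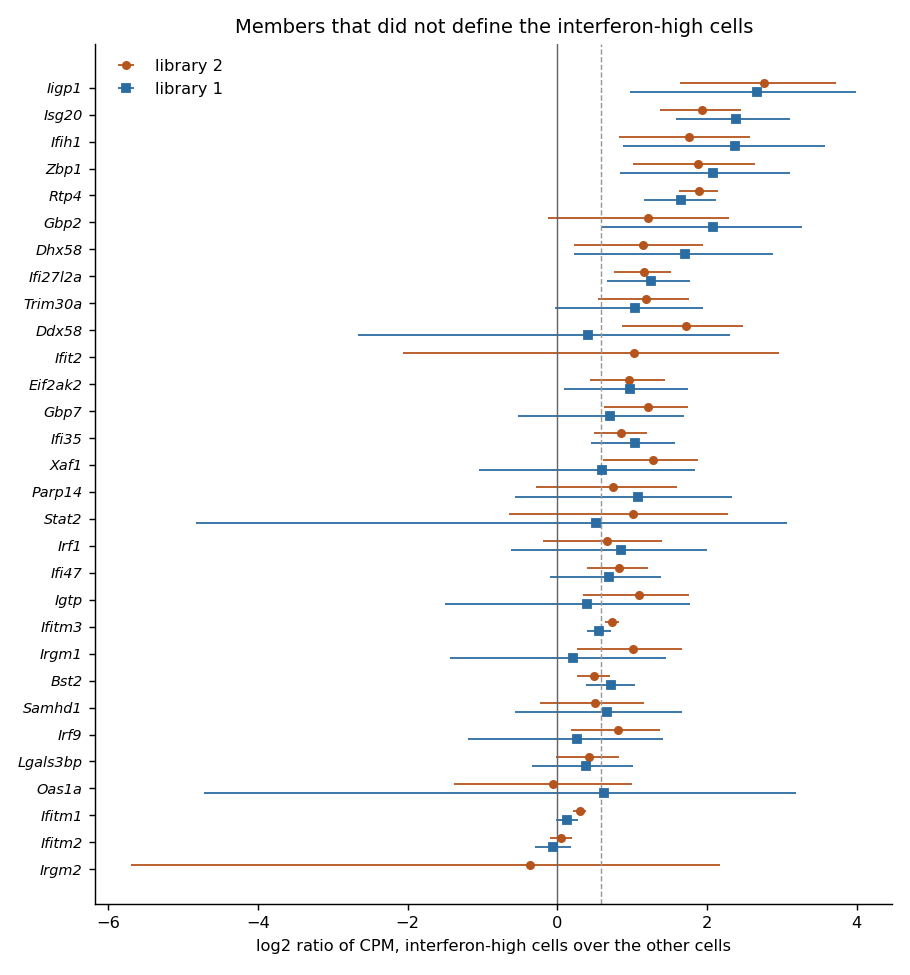
Log2 ratio of CPM in interferon-high cells over the other cells for the 30 measured members that did not define them, in library 2 (circles) and library 1 (squares), with exact conditional Poisson intervals; the solid line marks no difference, the dashed line marks 1.5-fold, and a symbol is left out where the high cells of a library had no UMI. Iigp1 and Isg20 lie near the top, and Ifitm1 and Ifitm2 lie close to 0.

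Genes outside the set were read in the same cells. Of the wider list, 29 of 77 measured genes were at least 1.5-fold higher in the high cells of both libraries, against the same 4.74%. Intervals lay above no difference in both libraries for 10 of the 77. Some of the 29 rested on few UMIs in the high cells, such as Phf11d with 2 in library 2 and 1 in library 1. Cxcl10 had 52.5 CPM in the high cells and 1.43 CPM in the other cells of library 2, and 26.1 CPM and 0.573 CPM in library 1. Its values in the high cells came from 20 UMIs in library 2 and 4 in library 1. Of genes outside the lists with a UMI in at least 10% of the high cells of both libraries, a minimum that genes could reach through the high cells alone, the 10 with the largest ratio by the smaller of the libraries were Gm4955, Cd9, Ms4a6b, Mgst1, Rnase6, Arid5b, Tbce, Pik3ip1, Gimap6 and Serpina3g. Their log2 ratios ran from 0.97 for Serpina3g, a serine protease inhibitor, to 2.71 for Gm4955.

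Depth and other transcripts also differed between the high cells and the rest, and their part in these values was not tested. The high cells had a median of 2961 UMIs and the other cells 4114 in library 2, and 2952 UMIs and 3255 in library 1. In cells of 2000 to 4000 UMIs the share of high cells was 4.16% (3.31% to 5.16%) in library 2, and 14 of the other members were at least 1.5-fold higher. Markers of plasmacytoid dendritic cells, which make much type I interferon, were at log2 0.16 (-0.13 to 0.44) in library 2 and 0.18 (-0.29 to 0.61) in library 1. That sum rests mostly on Tcf4 and Cox6a2, with 2412 and 1536 of its 4825 UMIs over the kept cells of library 2. Tcf4 had a UMI in 38.9% of those cells, while Siglech had 29 UMIs. The sum therefore says little about that cell type. The 5 neutrophil markers had no UMI in the high cells, which allows 7.87 CPM in library 2 and 19.6 CPM in library 1. The other cells had 37.8 CPM in library 2 and 19.5 CPM in library 1. S100a8, the most counted of the 5, had a UMI in 0.656% of kept cells of library 2 and 0.891% of library 1. With so few such cells, the lack of UMIs in the high cells says little. Macrophage markers had 11 UMIs in the high cells of library 2 and 3 in those of library 1, with log2 ratios of 2.21 and 0.66. Erythroid markers lay on opposite sides, at 0.81 in library 2 and -2.26 in library 1, from 31 and 3 UMIs in the high cells. Over the kept cells, Hbb-bt had 881 of the 924 erythroid UMIs in library 2 and 995 of 1040 in library 1. Lymphoid genes were higher in the high cells, at log2 0.61 in library 2 and 0.91 in library 1, and S-phase genes lower, at -0.46 and -0.30. Granule genes were at -0.74 (-0.88 to -0.60) in library 2 and -0.15 (-0.34 to 0.03) in library 1, and the genes of the Car2 gate at 0.61 (0.40 to 0.80) and 0.19 (-0.24 to 0.59). Markers of dendritic cells were at 0.13 (-0.11 to 0.36) in library 2 and 0.59 (0.36 to 0.80) in library 1. The dendritic list includes the sort gene Flt3, with 2651 of its 7009 UMIs over kept cells in library 2 and 1238 of 9297 in library 1. Markers of monocytes were at -0.33 (-0.76 to 0.07) in library 2 and 0.57 (0.05 to 1.05) in library 1. That sum rests mostly on Lyz2, with 2723 of its 3216 UMIs over kept cells in library 2 and 1445 of 1666 in library 1. The T, B and NK marker sums had intervals that include no difference in both libraries. Each rests on a single gene, and so says little about the cell type. Over the kept cells of library 2, Lat had 936 of 1010 T UMIs, Cd79b 1329 of 1332 B UMIs and Nkg7 5989 of 6007 NK UMIs.

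Cells were next divided by lineage transcripts in the thinned counts. The gates are ranges of marker counts and not cell types. Lymphoid-gene cells had at least 3 UMIs of a list led by Dntt, which adds bases at antigen receptor joints, a gene that gave 87.0% of its UMIs in library 2 and 85.9% in library 1. Granule-gene cells had at least 5 UMIs of neutrophil granule genes led by Prtn3. Stem-gene cells had at least 2 UMIs of Hlf, Meis1, Mecom, Procr and Mllt3. A gate on megakaryocyte-erythroid genes rested on Car2 for 97.2% of its UMIs in library 2 and 96.4% in library 1 and is called the Car2 gate, while Irf8 cells had at least 2 Irf8 UMIs. The gates held 796, 695, 152, 248 and 85 cells of library 2 in this order and 387, 476, 87, 95 and 36 cells of library 1. A cell within several gates was placed in 1 only, in the order lymphoid or granule, stem, Car2 and Irf8, after cells of a class II gate and cells within both the lymphoid and the granule gate had been set aside. Each was compared with all other cells of its library.

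Lymphoid-gene cells had less of the IFITM transcripts and more of Ifi27l2a. Ifitm1 had 1397 CPM in lymphoid-gene cells and 2529 CPM in the others of library 2 (log2 -0.86, -0.90 to -0.81), and 1235 CPM and 2596 CPM in library 1 (log2 -1.07, -1.15 to -0.995). Ifitm3 had 1066 CPM and 1659 CPM in library 2, and 957 CPM and 1603 CPM in library 1. Ifitm2 was lower too, at log2 -0.43 (-0.49 to -0.36) in library 2 and -0.34 (-0.44 to -0.25) in library 1. Summed, the 3 genes stayed between -0.58 and -0.85 on the log2 scale in both libraries under the alternative gates, depths and cells. Ifi27l2a had 120 CPM in lymphoid-gene cells and 65.7 CPM in the others of library 2 (log2 0.87, 0.69 to 1.04), and 176 CPM and 70.8 CPM in library 1 (log2 1.31, 1.07 to 1.55). The inducible members together were at 0.19 (0.13 to 0.25) in library 2 and 0.34 (0.24 to 0.44) in library 1, and in cells of 2000 to 4000 UMIs at 0.07 in library 2. Of 38 measured members, 2 were at least 1.5-fold higher in both libraries and 4 at least 1.5-fold lower, against 2.29% and 3.82% of all genes. The higher ones were Ifi27l2a and Stat2, and the lower ones Ifitm1, Ifitm3, Ddx58 and Ifit2, of which Ifit2 rested on 5 UMIs in library 2 and 2 in library 1. The intervals of Stat2, Ddx58 and Ifit2 include no difference in at least 1 library.

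Granule-gene cells had less of the inducible members and slightly more Ifitm1. The inducible members summed to 626 CPM in granule-gene cells and 803 CPM in the others of library 2 (log2 -0.36, -0.42 to -0.30), and to 558 CPM and 729 CPM in library 1 (log2 -0.38, -0.48 to -0.29). Isg15 had 62.2 CPM in granule-gene cells and 87.9 CPM in the others of library 2, and 48.9 CPM and 76.5 CPM in library 1. Rtp4 had 70.1 CPM and 108 CPM in library 2, and 62.3 CPM and 90.5 CPM in library 1. Ifitm1 was at log2 0.18 (0.14 to 0.21) in library 2 and 0.22 (0.17 to 0.26) in library 1. None of the 38 members was at least 1.5-fold higher and 3 were at least 1.5-fold lower in both libraries, Stat2, Ifit3 and Iigp1, each with at most 18 UMIs in a gate, against 1.07% and 2.79% of all genes. Depth differed with the gate, with a median of 5328 UMIs in granule-gene cells of library 2 and 4028 in those of library 1. In cells of 2000 to 4000 UMIs the inducible sum was at -0.06 (-0.20 to 0.08) in library 2 and -0.32 (-0.46 to -0.17) in library 1, so at matched depth the interval in library 2 includes no difference.

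Cells of the Car2 gate had more of the inducible members. Their sum was 1050 CPM in the Car2 gate and 750 CPM in the other cells of library 2 (log2 0.49, 0.39 to 0.58), and 855 CPM and 683 CPM in library 1 (log2 0.33, 0.14 to 0.51). Rtp4 had 169 CPM in the Car2 gate and 96.3 CPM in the others of library 2, and 128 CPM and 82.4 CPM in library 1. Isg20 had 51.2 CPM and 22.7 CPM in library 2, and 41.4 CPM and 22.1 CPM in library 1. Ifitm1-3 were higher as well, at log2 0.39 (0.35 to 0.43) in library 2 and 0.37 (0.31 to 0.44) in library 1. Of 38 members, 7 were at least 1.5-fold higher in both libraries and none at least 1.5-fold lower, against 4.16% and 5.69% of all genes. The 7 were Dhx58, Oasl2, Ifit1, Ifit3, Isg20, Rtp4 and Parp14, of which Ifit3 rested on 7 UMIs in library 2 and 1 in library 1 and Ifit1 on 20 and 3. Of the 7, 6 are inducible members. Intervals lay above no difference in both libraries for 4 of the 38 members, and only 1 of these was inducible. Interferon-high cells made up 7.66% of the gate in library 2, or 19 of 248 cells, and 2.11% in library 1, or 2 of 95. Without those cells the inducible sum was at 0.38 in library 2 and 0.36 in library 1. With the gate minimum 1 UMI lower it was at 0.13 in library 2, and on thinned counts at 0.13 (-0.11 to 0.37) in library 1. In cells of 2000 to 4000 UMIs it was at 0.40 (0.28 to 0.52) in library 2 and 0.14 (-0.09 to 0.36) in library 1.

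Stem-gene cells differed little. Ifitm1 had 2895 CPM in stem-gene cells and 2313 CPM in the others of library 2 (log2 0.32, 0.25 to 0.39), and 2719 CPM and 2406 CPM in library 1 (log2 0.18, 0.07 to 0.28). Bst2 was lower, with 275 CPM and 344 CPM in library 2, and 255 CPM and 331 CPM in library 1. The inducible sum was at 0.04 (-0.09 to 0.18) in library 2 and -0.01 (-0.21 to 0.20) in library 1, and both intervals include no difference. Of 38 members, 3 were at least 1.5-fold higher (Ddx58, Igtp and Iigp1) and 1 at least 1.5-fold lower (Oasl1) in both libraries, against 4.33% and 5.24% of all genes. Of these, Oasl1 rested on 3 UMIs in library 2 and 1 in library 1, Iigp1 on 5 in each, and Ddx58 on 21 and 5. In Irf8 cells, Bst2 had 498 CPM against 337 CPM in the others of library 2 (log2 0.56, 0.36 to 0.75), and 461 CPM against 327 CPM in library 1 (log2 0.50, 0.10 to 0.87). Ifi27l2a had 160 CPM and 72.9 CPM in library 2, and 175 CPM and 83.3 CPM in library 1. Ifitm1 had 1669 CPM and 2350 CPM in library 2, and 1129 CPM and 2435 CPM in library 1. The Ifitm1-3 sum of Irf8 cells was at log2 -0.35 in library 2 and -0.78 in library 1, but in cells of 2000 to 4000 UMIs at 0.08 (-0.07 to 0.23) in library 2. A small group with at least 10 UMIs of class II antigen presentation genes, 6 cells of library 2 and 34 of library 1, had the most Ifi27l2a, with 293 CPM from 5 UMIs in library 2 and 300.1 CPM from 45 UMIs in library 1. Samhd1 had 176 CPM from 3 UMIs in that group in library 2 and 100.04 CPM from 15 UMIs in library 1.

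**Figure D4:**
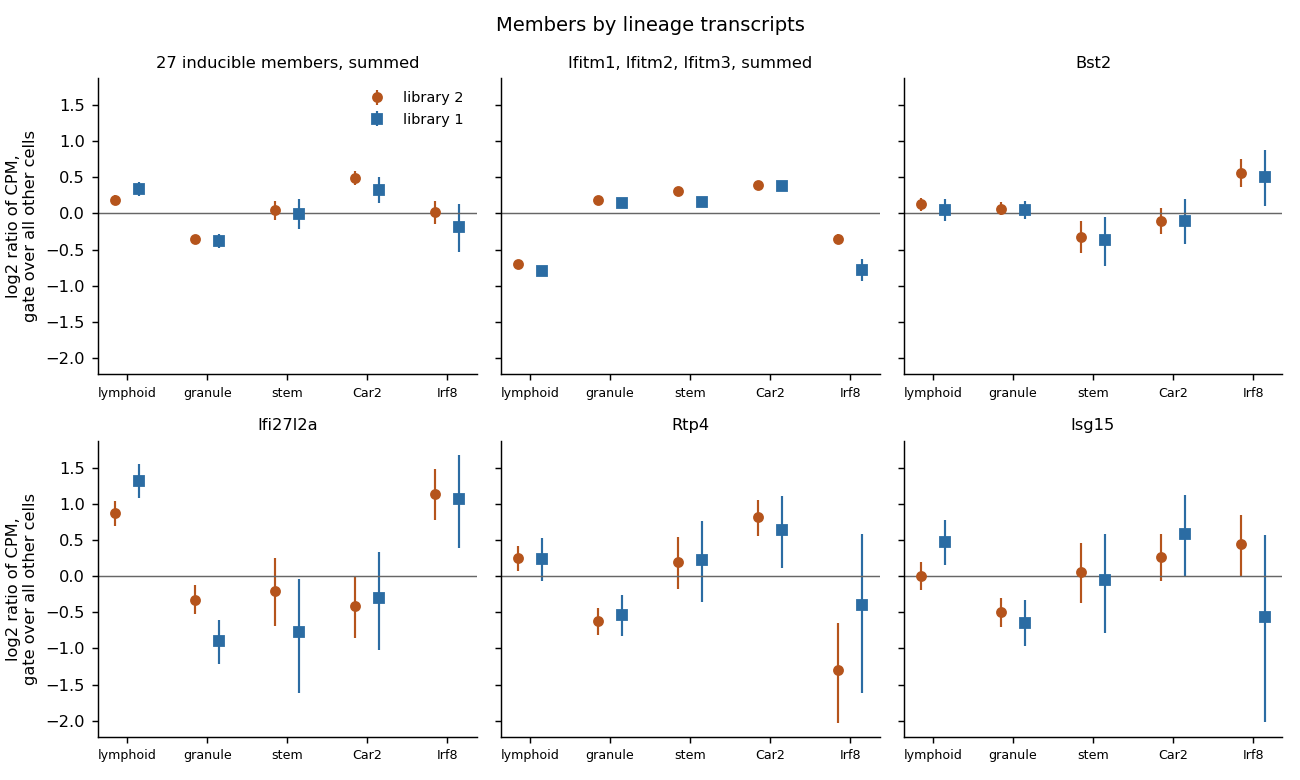
Log2 ratio of CPM in cells of each of 5 lineage gates over all other cells of the library, for the inducible sum, the Ifitm1-3 sum and 4 single members, in library 2 (circles) and library 1 (squares), with exact conditional Poisson intervals. The IFITM sum is below 0 and Ifi27l2a above 0 in the lymphoid gate, and the inducible sum is below 0 in the granule gate and above 0 in the Car2 gate, in both libraries.

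The summed members were highest in cells with few cell-cycle transcripts, and single members differed in this. Cells were divided into those with at least 10 UMIs of G2/M genes, those with at least 8 UMIs of S-phase genes and fewer of G2/M genes, and those with at most 1 G2/M and 2 S-phase UMIs, with the remainder between. The G2/M gate held 865 cells of library 2 and 252 of library 1, the S gate 1359 and 673, the remainder 1574 and 1333, and the group with few such transcripts 218 and 186. The inducible members summed to 776 CPM in G2/M cells, 697 CPM in S cells and 770 CPM in the remainder, against 1263 CPM (1175 to 1356) in cells with few cell-cycle transcripts of library 2. In library 1 the sums were 731 CPM, 652 CPM and 670 CPM, against 945 CPM (863 to 1034). The step lay between the cells with few such transcripts and all the rest. Set against all cells outside the S and G2/M gates, the inducible sum of G2/M cells was at log2 -0.06 in library 2 and 0.07 in library 1, and that of S cells at -0.22 and -0.09.

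Rtp4, Isg20, Samhd1 and Ifitm1 showed the step in both libraries, and Bst2, Lgals3bp, Gbp7 and Eif2ak2 were among those that did not. Rtp4 had 103 CPM in G2/M cells and 87.3 CPM in S cells, against 202 CPM in cells with few cell-cycle transcripts of library 2, and 68.4 CPM and 85.3 CPM, against 151 CPM, in library 1. Isg20 had 18.5 CPM in G2/M cells and 22.5 CPM in S cells, against 60.0 CPM in library 2, and 19.0 CPM and 18.4 CPM, against 51.1 CPM, in library 1. Samhd1 had 33.2 CPM in G2/M cells and 31.1 CPM in S cells, against 61.6 CPM in library 2, and 24.7 CPM and 25.3 CPM, against 51.1 CPM, in library 1. Ifitm1 had 2088 CPM in G2/M cells and 2283 CPM in S cells, against 3362 CPM in library 2, and 1927 CPM and 2344 CPM, against 3132 CPM, in library 1. Isg15 had 84.8 CPM in G2/M cells and 72.7 CPM in S cells, against 145 CPM in library 2, and 54.2 CPM and 64.3 CPM, against 84.5 CPM, in library 1. The interval of the Isg15 ratio in S cells of library 1 includes no difference. Bst2 was at log2 -0.14 (-0.34 to 0.06) in G2/M cells of library 2 and -0.07 (-0.34 to 0.20) in those of library 1. Ifi27l2a was at 0.21 (-0.19 to 0.63) in G2/M cells of library 2 and 0.05 (-0.38 to 0.49) in those of library 1, but in S cells at -0.67 (-1.08 to -0.23) and -1.04 (-1.47 to -0.60). Lgals3bp ran the other way, with 97.8 CPM in G2/M cells and 104 CPM in S cells, against 88.3 CPM in library 2, and 120 CPM and 116 CPM, against 98.3 CPM, in library 1, but the intervals of its ratios include no difference. Gbp7 was at -0.21 (-0.83 to 0.48) in G2/M cells of library 2 and 0.25 (-0.65 to 1.23) in those of library 1. Eif2ak2 was at -0.40 (-0.88 to 0.11) in G2/M cells of library 2 and -0.45 (-1.18 to 0.31) in those of library 1.

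Relative to the cells with few cell-cycle transcripts, none of 32 measured members was at least 1.5-fold higher in G2/M cells of both libraries and 11 were at least 1.5-fold lower, against 9.23% and 4.01% of all genes. In S cells none of 33 was higher and 14 were lower by this limit, against 9.94% and 4.57% of all genes. The median log2 ratio of the members in G2/M cells was -0.57 in library 2 and -0.44 in library 1, where all genes had 0.09 and 0.10. Depth moved with these gates, with a median of 5179 UMIs in G2/M cells, 4072 in S cells and 2442 in cells with few cell-cycle transcripts of library 2, and 3904, 3188 and 2460 in library 1. In cells of 2000 to 4000 UMIs the inducible sum of G2/M cells was at log2 -0.52 (-0.68 to -0.35) in library 2 and -0.40 (-0.61 to -0.19) in library 1, and that of S cells at -0.82 (-0.95 to -0.69) and -0.58 (-0.74 to -0.42). With a G2/M minimum of 20 UMIs the G2/M value was -0.29 (-0.44 to -0.14) in library 2 and -0.08 (-0.40 to 0.23) in library 1. Interferon-high cells made up 9.63% (6.06% to 14.3%) of the cells with few cell-cycle transcripts in library 2 and 2.15% (0.589% to 5.41%) in library 1. Without them the inducible sum of G2/M cells was at -0.53 in library 2 and -0.31 in library 1, and that of S cells at -0.68 and -0.45.

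**Figure D5:**
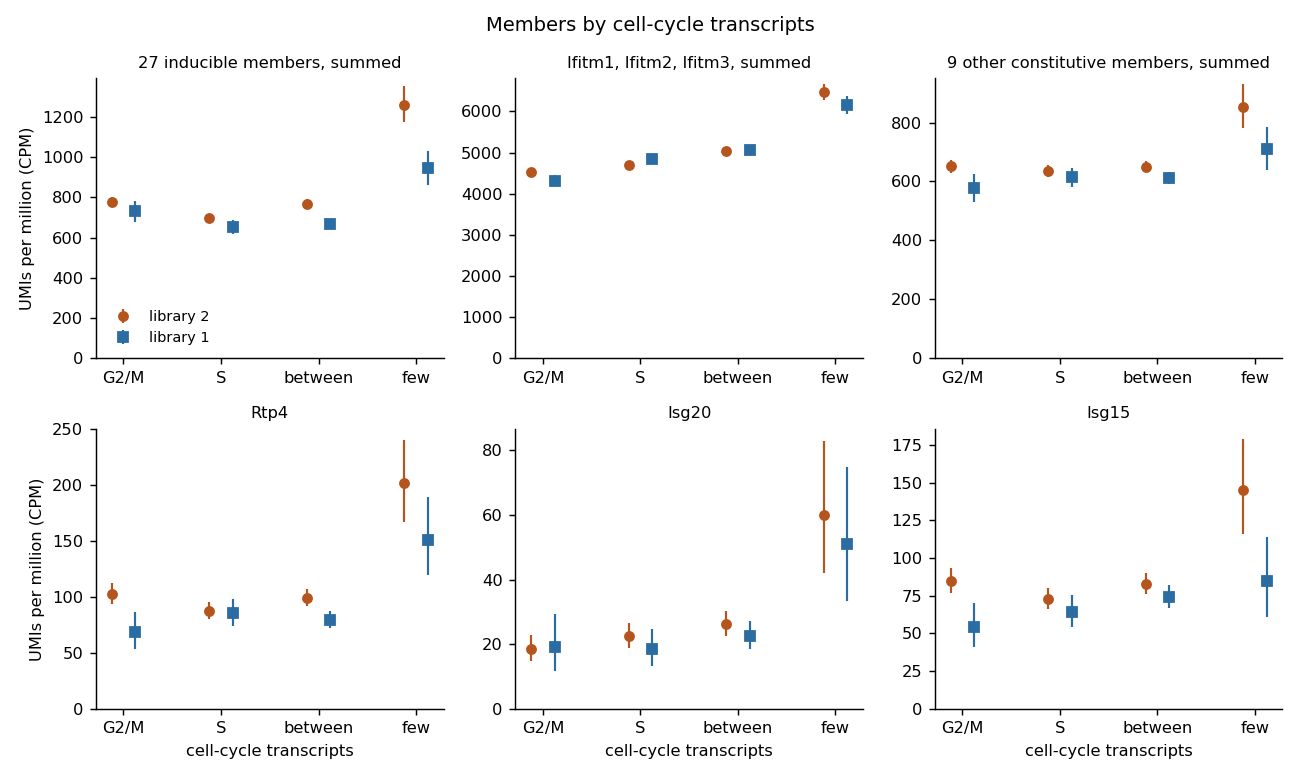
CPM in cells with G2/M transcripts, with S-phase transcripts, between the gates and with few cell-cycle transcripts, for 3 sums and 3 single members in library 2 (circles) and library 1 (squares), with exact Poisson intervals and axes from 0. In both libraries the group with few cell-cycle transcripts lies above the other 3 groups for each of the 3 sums and for Rtp4 and Isg20.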

How the data were processed

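The authors deposited UMI counts (whole reads collapsed by identifier, per gene and barcode) of 27998 genes in 7884 barcodes. They were made with Cell Ranger 1.1 on mm10, per the submitters' processing notes, and other upstream steps are not stated in the sources. Members and lists were chosen with earlier results of these data known.

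Barcodes with at least 500 genes and under 10% mitochondrial UMIs were kept, with 18750468 UMIs in library 2 and 10118499 in library 1, and scaled to CPM. Ratios were read for genes with at least 50 UMIs and counted at 1.5-fold. Gates and interferon-high cells were set on counts thinned to 2000 UMIs, and levels used all UMIs of those cells. No doublet caller was run. Shared 3' sequence is the share of 50-base words in the last 300 bases found in another gene among 141767 GENCODE M21 transcripts. Genes named in full were, per role, the 2 with the most UMIs and the one with the largest ratio, then the 8 defining genes and the leading genes of the other lists. Ratios and intervals were tried on simulated library sums drawn with Poisson error, the error that the intervals assume. The simulation held no cells or gates, so it does not check the intervals against spread between cells. Alternatives changed cell and gene filters, scaling, gate minima, thinning depth and reference cells. Python 3.11.15, numpy 2.4.6, scipy 1.17.1, pandas 2.3.3, matplotlib 3.10.9, R 4.3.3 and, for TMM factors only, edgeR 4.0.16 were used.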

Additional observations from a re-analysis of the deposited data

Results flagged for a closer look

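A small group of 35 cells of library 2 and 18 cells of library 1 held both lymphoid and granule transcripts, and there Ifitm1 and the sums it leads lay on opposite sides of the other cells in the 2 libraries, with neither interval including 0. Ifitm1 had 2602 CPM in these cells and 2330 CPM in the others of library 2 (log2 0.16, 0.02 to 0.30), and 1478 CPM and 2424 CPM in library 1 (log2 -0.71, -1.01 to -0.43). The sum of Ifitm1-3 was at 0.16 in library 2 and -0.48 in library 1, and that of all constitutive members, which Ifitm1 leads, at 0.19 and -0.41. Ifitm3 was at 0.18 (0.01 to 0.35) in library 2 and -0.24 (-0.56 to 0.06) in library 1, and Ifitm2 had intervals that include 0 in both. The difference between the libraries was not tested.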

How the results depend on the processing

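No paired analysis was possible because each genotype gave 1 library and the labels carry no replicate numbers, and for the same reason leaving out a replicate was not run. Alternatives chosen after seeing the data were the depth range of 2000 to 4000 UMIs, the cells outside the S and G2/M gates, cells in no lineage gate, another reference for the cycle gates, and removal of the fullest cell. No setting turned the direction of a value past 1.5-fold. For the library ratios of single members, 347 of 367 settings gave a value within the counting interval of the one reported, and for the sums and counts of that comparison 29 of 40 did so or, for counts, stayed within 1.5 times. The gates, the interferon-high cells and the broad counts moved more often: of their settings 73 of 112 and, for the values that answer a comparison, 73 of 125 stayed within these limits, and 39 and 52 did not.

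Of the 2 members past 1.5-fold, 1 was left with no filter on barcodes, with at least 1000 genes and under 5% mitochondrial UMIs, with at least 200 UMIs per gene, and without genes that share 50-base words. The inducible sum (log2 0.09) was 0.18 with the stricter barcode filter, -0.0060 with TMM factors and 0.17 in cells of 2000 to 6000 UMIs. The other constitutive members (0.06) were at -0.036 with TMM factors. Ifitm1-3 (-0.06) were at -0.035 with the stricter filter, -0.15 with TMM factors and -0.041 without genes that share words. At a minimum share of 5%, 9 constitutive and 8 inducible members were broad. No inducible member was broad at 20%, or when thinned to 1000 UMIs, where the count was 0.

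The share of interferon-high cells in library 2 and library 1 was 8.29% and 6.38% with at least 2 defining UMIs, 0.996% and 0.777% with 4, and 0.224% and 0.123% with 6. It was 1.07% and 0.841% when thinned to 1000 UMIs, 4.01% and 2.60% at 3000, and 4.16% in library 2 cells of 2000 to 4000 UMIs. The log2 ratio of the other members there was 0.72 and 0.62 with at least 2 defining UMIs, 1.14 with 4 in library 2, 1.56 and 1.97 with 6, 1.24 and 1.25 at 1000 UMIs, and 0.82 and 0.71 at 3000. At 3000 UMIs 9 of those members were at least 1.5-fold higher, in place of 16.

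Ifitm1-3 in lymphoid-gene cells of library 2 and library 1 were at -0.58 and -0.66 with gate minima 1 UMI lower, -0.77 and -0.85 with minima 1 higher, and -0.62 and -0.65 outside the S and G2/M gates. In library 2 they were at -0.73 on thinned counts and -0.77 in cells of 2000 to 4000 UMIs. The inducible sum in granule-gene cells of library 2 was at -0.20 with lower minima and -0.057 at that depth. In the Car2 gate it was at 0.13 with lower minima and 0.38 without interferon-high cells in library 2, and at 0.13 on thinned counts in library 1.

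In G2/M cells the inducible sum of library 2 and library 1 was at -0.83 and -0.57 with a minimum of 5 UMIs, -0.29 and -0.078 with 20, and -0.064 and 0.072 against all cells outside the S and G2/M gates. In library 2 it was at -0.53 without interferon-high cells, -0.52 in cells of 2000 to 4000 UMIs and -0.48 in cells of no lineage gate. In S cells it was at -0.22 and -0.092 against all cells outside the gates, -0.67 and -0.27 in cells of no lineage gate, and -0.68 without interferon-high cells in library 2. The causes were not tested. Members with few UMIs, such as Ifit2, Ifit3 and Irgm2, had few UMIs within gates, and where they are counted there past 1.5-fold the count rests on those few.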

Other observations

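Oas1g, a relative of Oas1a, was read after the Oas1a value had been seen. It had 37 UMIs in library 2 and 3 in library 1, below the minimum of 50 in all, with a log2 ratio of 2.73 (1.08 to 5.08). Of the other OAS genes, Oas1c was at 0.19 (-0.50 to 0.91), Oas2 at -0.0036 (-0.64 to 0.65) and Oas3 at -0.23 (-0.60 to 0.15).

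Some genes of the wider list were high in the interferon-high cells without being named by the rule, and were chosen after their values were seen. Ifi44 had 36.7 CPM in the high cells and 7.77 CPM in the others of library 2, and 52.2 CPM and 9.39 CPM in library 1. Oas3 had 23.6 CPM in the high cells and 7.77 CPM in the others of library 2, and 58.7 CPM and 9.16 CPM in library 1. Gm4951, Phf11b and Ube2l6 were at log2 2.79, 1.41 and 1.24 in library 2 and 3.31, 2.07 and 1.65 in library 1.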
